A study of Mus musculus with 6 samples.

Results

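The genes described here are 39 genes of the unfolded protein response and of the response to amino acid stress, taken by symbol from a list and measured in HC11 cells with and without BMP7. All 39 symbols were found among the 55809 genes of the count table, and all 39 were among the 15733 genes that passed the filter on low counts. They fall into Atf4 with its target genes (20 genes) and the genes of the endoplasmic reticulum (ER), which are its sensors, chaperones and degradation factors (19 genes). HC11 is a clonal epithelial line derived from the mammary gland of a pregnant mouse, and BMP7 is a secreted ligand of the bone morphogenetic protein family that signals through Smad proteins. Cells were kept in medium without BMP7 (Ctrl, 3 libraries) or in medium with BMP7 protein (BMP7, 3 libraries), and poly(A) RNA of both groups was sequenced. The paper's methods for growth factor stimulation state that HC11 cells were starved before BMP7 was given, without naming these libraries. Levels in Ctrl may thus be those of starved cells and not of cells in growth medium. No genotype differs between the groups, the line is 1 clone, and the sources used here do not tie a stimulation time to these libraries. BMP7 libraries are named here by the numbers of their columns, which are 1, 3 and 4.

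When unfolded proteins gather in the ER, the sensors Ern1 (IRE1), Eif2ak3 (PERK) and Atf6 start the unfolded protein response. Ern1 splices Xbp1 mRNA, and the Xbp1 and Atf6 proteins switch on chaperones and degradation factors. Eif2ak3 and other kinases phosphorylate the translation factor eIF2, which slows translation in general but favours translation of Atf4 mRNA, and Atf4 protein then switches on genes for amino acid synthesis, uptake and tRNA charging. The activity of both arms is set in large part by splicing, cleavage and translation, none of which is read by counts per gene.

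In medium with BMP7, several ER chaperones rose, while most genes of both sides, 12 of 19 ER genes and 17 of 20 Atf4 genes, were called in neither direction. A gene was called when edgeR's quasi-likelihood test gave a Benjamini-Hochberg adjusted p under 0.05 and the fold change was over 1.2. Of the 19 ER genes 7 rose (Calr, Hspa5, Manf, Dnajb9, Hsp90b1, Pdia3 and Xbp1), and their log2 fold changes lay between 0.27 and 0.53. None of the 19 fell by this test, where 9 were higher and 1 lower at an unadjusted p under 0.05 and DESeq2 called 7 higher and 0 lower. At the same unadjusted p, 2067 of all 15733 genes tested were higher and 2058 lower. Of the 20 Atf4 genes 2 rose (Chac1 and Slc7a5) and 1 fell (Trib3). Over all genes tested 5.99% were called higher and 5.38% lower, 11.4% together, against 36.8% of the ER genes and 15% of the Atf4 genes. The median log2 fold change was 0.10 for the ER genes, 0.07 for the Atf4 genes and -0.01 over all genes tested. The order of the ER and Atf4 medians turned without Ctrl replicate 2 (ER 0.11, Atf4 0.17) and without BMP7 replicate 3 (0.09 and 0.10). It also turned with BMP7 replicate 1 as the only BMP7 library (0.10 and 0.14) and with the column number as a block in the fit (0.13 and 0.20). Without BMP7 replicate 4 both medians were 0.11. The difference between the ER and the Atf4 genes was not tested.

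**Figure D1:**
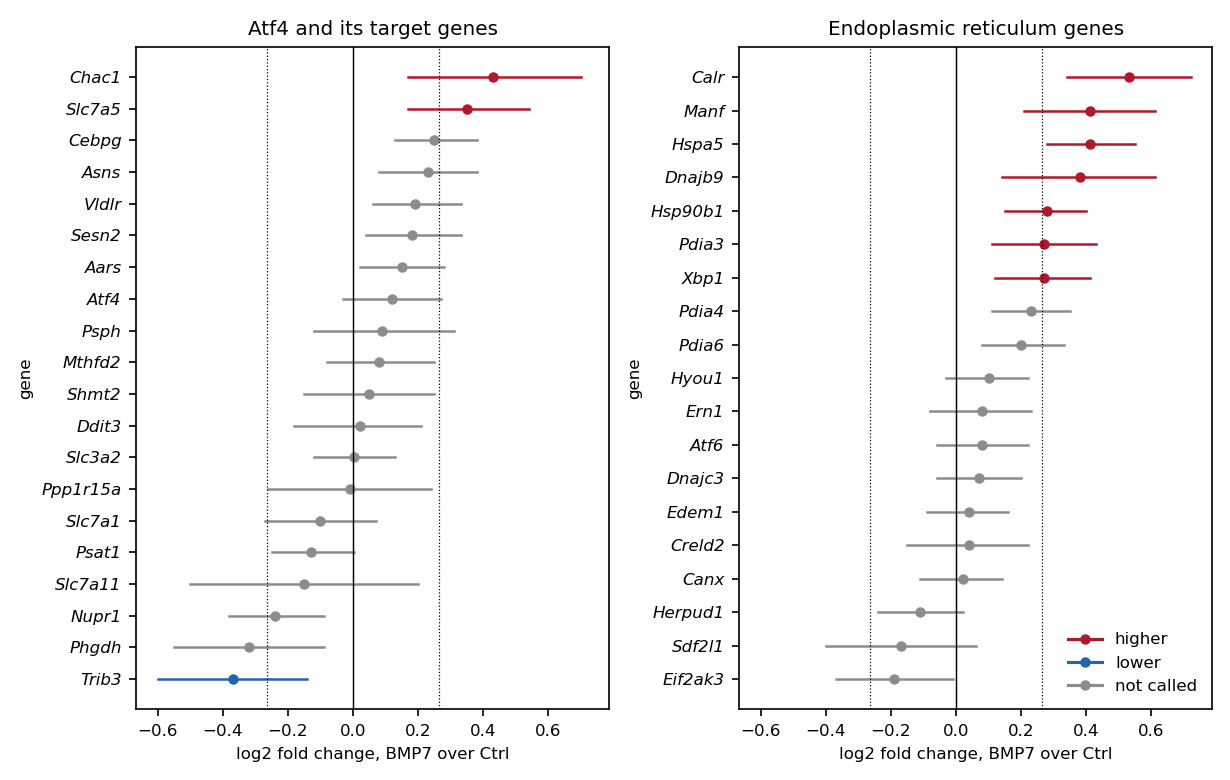
Log2 fold change of BMP7 over Ctrl for each of the 39 genes (horizontal axis), Atf4 genes on the left and endoplasmic reticulum genes on the right. Points are edgeR estimates from 3 against 3 libraries, lines are 95% confidence intervals, dotted lines mark a fold change of 1.2 in either direction, and colour gives the call. The called ER genes all lie to the right of 0, from 0.27 to 0.53, and the Atf4 genes run from -0.37 to 0.43.

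The libraries held between 14607938 and 23748970 counted fragments, and the biological coefficient of variation was 0.0696. The labels do not say whether the libraries came from separate cultures, so p-values measure the spread between these samples, which may be technical. The treatment showed in the BMP target genes Id1, Id2, Id3, Smad6 and Smad7, which all rose, by 2.21 to 6.31 on the log2 scale. Epithelial markers summed to 8091 to 8234 CPM (counts scaled to a common library size) in Ctrl and 8512 to 9968 CPM in BMP7, with 2 of 10 tested called higher and 4 lower. Basal Krt14 and Krt5 were far above luminal Krt8 and Krt18, also per kb of exon, and Krt19 was near 0. BMP7 replicates 3 and 4 stood apart from the other 4 libraries in marker genes of other cell types. The 10 adipocyte markers summed to 73.9 and 64.4 CPM there, 21.6 CPM in BMP7 replicate 1 and 11.9 to 20.9 CPM in Ctrl. The 11 macrophage markers summed to 26.0 and 24.6 CPM there, 51.6 CPM in BMP7 replicate 1 and 49.0 to 53.3 CPM in Ctrl. Of 7 adipocyte markers tested 6 were called higher, and of 8 macrophage markers 2 were called lower. Much of the macrophage sum was Lyz2, with a Ctrl mean of 26.2 CPM and 22.5, 6.76 and 6.94 CPM in BMP7 replicates 1, 3 and 4. Of the 8, 7 had a log2 fold change below 0 and 1 above, Cd68, with means of 11.3 CPM in Ctrl and 13.7 CPM in BMP7. Fibroblast markers summed to 99.9 to 124 CPM across the 6 libraries, with 3 of 5 tested called higher and 1 lower. Endothelial markers summed to 13.2 to 15.8 CPM in Ctrl and 24 to 26.2 CPM in BMP7, nearly all of it Pecam1, which was called higher, while Cldn5, Kdr and Cdh5 were at or near 0. The source of this marker RNA in a clonal line, and its part in the results below, were not tested. In bulk RNA a change in the number of cells of a type and a change in RNA per cell cannot be told apart.

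Known binding elements of the factors of both arms were looked up in the promoters, and stretches that hold one are shown here for genes that rose and for genes that gave no call. The ER stress element, bound by Atf6 with NF-Y, was searched as CCAAT, any 9 bases and CCACG, and the C/EBP-ATF element, bound by Atf4 with C/EBP partners, as TGATGNAA, each on both strands. RefSeq promoters (build GRCm38.p6, 250 bases before to 50 bases after the start site) were at hand for 35 of the 39 genes, all but Atf6, Hyou1, Manf and Slc7a5. In the sequences that follow, read in the direction of transcription, capitals mark the element.
Hspa5 (chr2:34772015-34772053, + strand): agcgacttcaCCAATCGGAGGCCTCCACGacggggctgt
Calr (chr8:84847065-84847103, - strand): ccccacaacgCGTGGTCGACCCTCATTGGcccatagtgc
Pdia6 (chr12:17266481-17266519, + strand): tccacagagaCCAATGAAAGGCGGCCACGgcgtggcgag
Canx (chr11:50325790-50325828, - strand): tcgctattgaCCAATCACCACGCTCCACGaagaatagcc
Creld2 (chr15:88819510-88819548, + strand): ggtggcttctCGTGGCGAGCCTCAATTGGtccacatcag
Chac1 (chr2:119351039-119351066, + strand): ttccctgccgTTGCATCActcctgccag
Asns (chr6:7693215-7693242, - strand): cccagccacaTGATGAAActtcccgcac
Nupr1 (chr7:126625563-126625590, - strand): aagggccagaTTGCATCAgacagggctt
Herpud1 (chr8:94386307-94386397, + strand): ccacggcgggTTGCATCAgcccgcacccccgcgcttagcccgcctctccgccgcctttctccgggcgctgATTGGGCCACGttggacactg

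Calr and Creld2 carry the ER stress element in reverse, as CGTGG, 9 bases and ATTGG. The element stood in 7 of the 16 ER genes with a promoter (Calr, Canx, Creld2, Dnajc3, Hsp90b1, Hspa5 and Pdia6), in 0 of 19 Atf4 genes and in 0.119% of all 32851 promoters. The C/EBP-ATF element stood in 7 of 19 Atf4 genes (Aars, Asns, Chac1, Nupr1, Slc7a11, Trib3 and Vldlr) and in 1 of 16 ER genes. It was in 3.97% of all promoters and 2.35% of those of tested genes. The ER gene with it was Herpud1, whose promoter also held the ER stress element II, ATTGG, 1 base and CCACG, found in 0.0365% of all promoters. The UPR element TGACGTGG, bound by Xbp1 and Atf6, was in none of the 35 genes and in 0.676% of all promoters. CCACG alone, which is also the end of both ER stress elements, was in 13 of 19 Atf4 genes and 13 of 16 ER genes against 32.8% of all promoters, or 46.1% of the 13284 promoters of tested genes. GGCGCC, a core of the GC-rich sites of Smad proteins, was in 3 of 19 Atf4 genes and 6 of 16 ER genes, against 11.9% of all promoters and 20.5% of those of tested genes. A match is a string of letters and not a bound site. The genes were listed as genes of these arms, so the shares with an element are not a result of the BMP7 data.

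**Figure D2:**
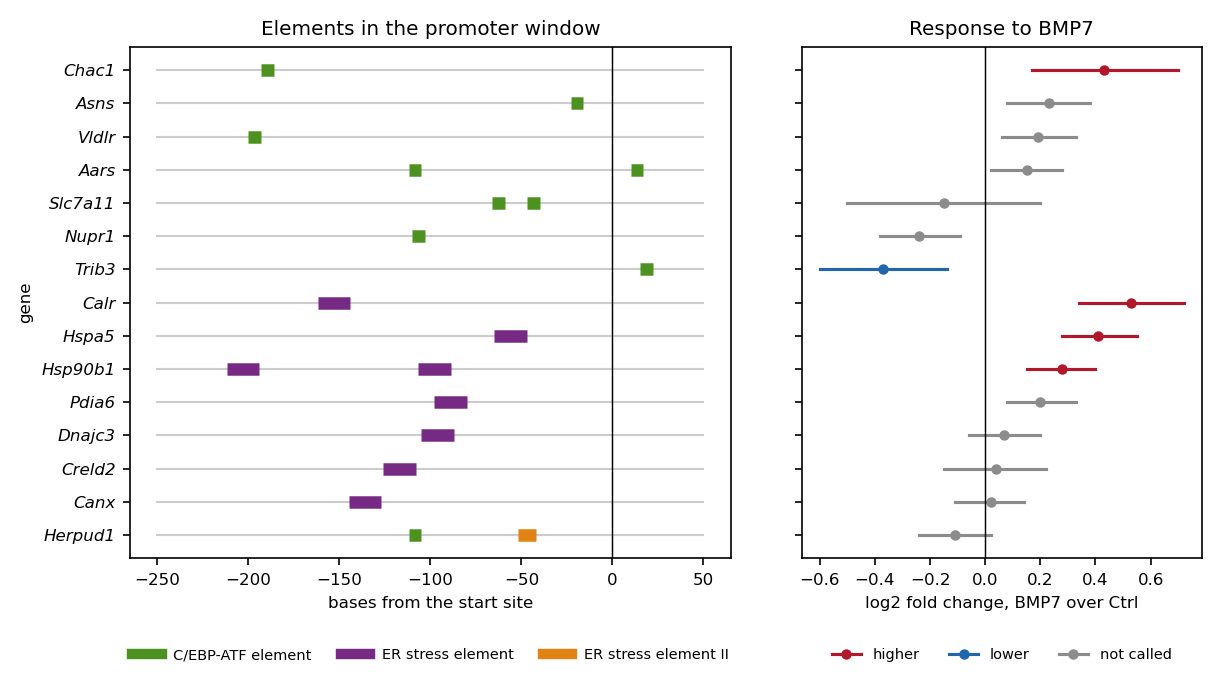
Left, position of each element in the promoter window of the 15 genes that hold one, in bases from the start site (0), with one grey line per gene. Right, log2 fold change of BMP7 over Ctrl with its 95% confidence interval (3 against 3 libraries). Genes with the ER stress element run from 0.02 (Canx) to 0.53 (Calr), and genes with the C/EBP-ATF element lie on both sides of 0.

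Called genes were found with and without an element. Of the 7 ER genes with the ER stress element 3 rose (Calr, Hspa5 and Hsp90b1), with a median log2 fold change of 0.20. Of the 9 without it, Herpud1 among them, 3 also rose (Xbp1, Pdia3 and Dnajb9), with a median of 0.08. With the ER stress element II of Herpud1 counted as well, 3 of 8 with an element rose (median 0.14) and 3 of 8 without (median 0.15). Of the 7 Atf4 genes with the C/EBP-ATF element 1 rose (Chac1) and 1 fell (Trib3, where the element lies after the start site), and of the 12 without it none was called by edgeR. Slc7a5 and Manf, which also rose, had no promoter at hand and are in none of these groups. Over all genes tested 5.99% were called higher and 5.38% lower, and these splits were not tested.

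Among the chaperones, 6 of 13 rose and 12 of 13 had a log2 fold change above 0, with a median of 0.23. Over all 15733 genes tested, 5.99% were called higher and 7651 genes had a log2 fold change above 0. Calr, calreticulin, is a lectin-like chaperone that holds calcium and folds glycoproteins. It was at 1012, 1111 and 1157 CPM in the Ctrl libraries and 1561, 1809 and 1354 CPM in BMP7 replicates 1, 3 and 4. The lowest BMP7 library was above the highest Ctrl library, and Calr rose by 0.53 ± 0.09 (SE) on the log2 scale (adjusted p = 6.21e-04), the largest change among the ER genes. Hspa5, the central Hsp70 chaperone of the ER (BiP), which also holds the sensors inactive, was at 409, 413 and 411 CPM in Ctrl and 568, 569 and 504 CPM in BMP7. Its Ctrl libraries lay within a few CPM of each other and all BMP7 libraries lay clear of them, and it rose by 0.41 ± 0.06 (adjusted p = 2.49e-04). Calr and Hspa5 kept their calls under all 13 alternative fits.

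Hsp90b1, the Hsp90 chaperone of the ER (GRP94), was at 614, 612 and 622 CPM in Ctrl and 736, 774 and 728 CPM in BMP7. The groups did not overlap, and the rise was 0.28 ± 0.06 (adjusted p = 0.00418), a little over the fold threshold. Manf, a secreted and ER-retained protein that binds Hspa5, was at 44.9, 49.7 and 53.5 CPM in Ctrl and 69.1, 72.0 and 55.0 CPM in BMP7. BMP7 replicate 4 was only just above the highest Ctrl library, and the rise was 0.41 ± 0.09 (adjusted p = 0.00769). Dnajb9, a J-domain helper of Hspa5 that acts on Ern1, was at 20.2, 21.0 and 18.5 CPM in Ctrl and 22.5, 30.6 and 24 CPM in BMP7. BMP7 replicate 3 was well above the other BMP7 libraries, and the rise was 0.38 ± 0.11 (adjusted p = 0.0307). The Dnajb9 call was lost on leaving out any 1 Ctrl library, without BMP7 replicate 3 (log2 fold change 0.23) and with BMP7 replicate 1 alone (0.18).

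**Figure D3:**
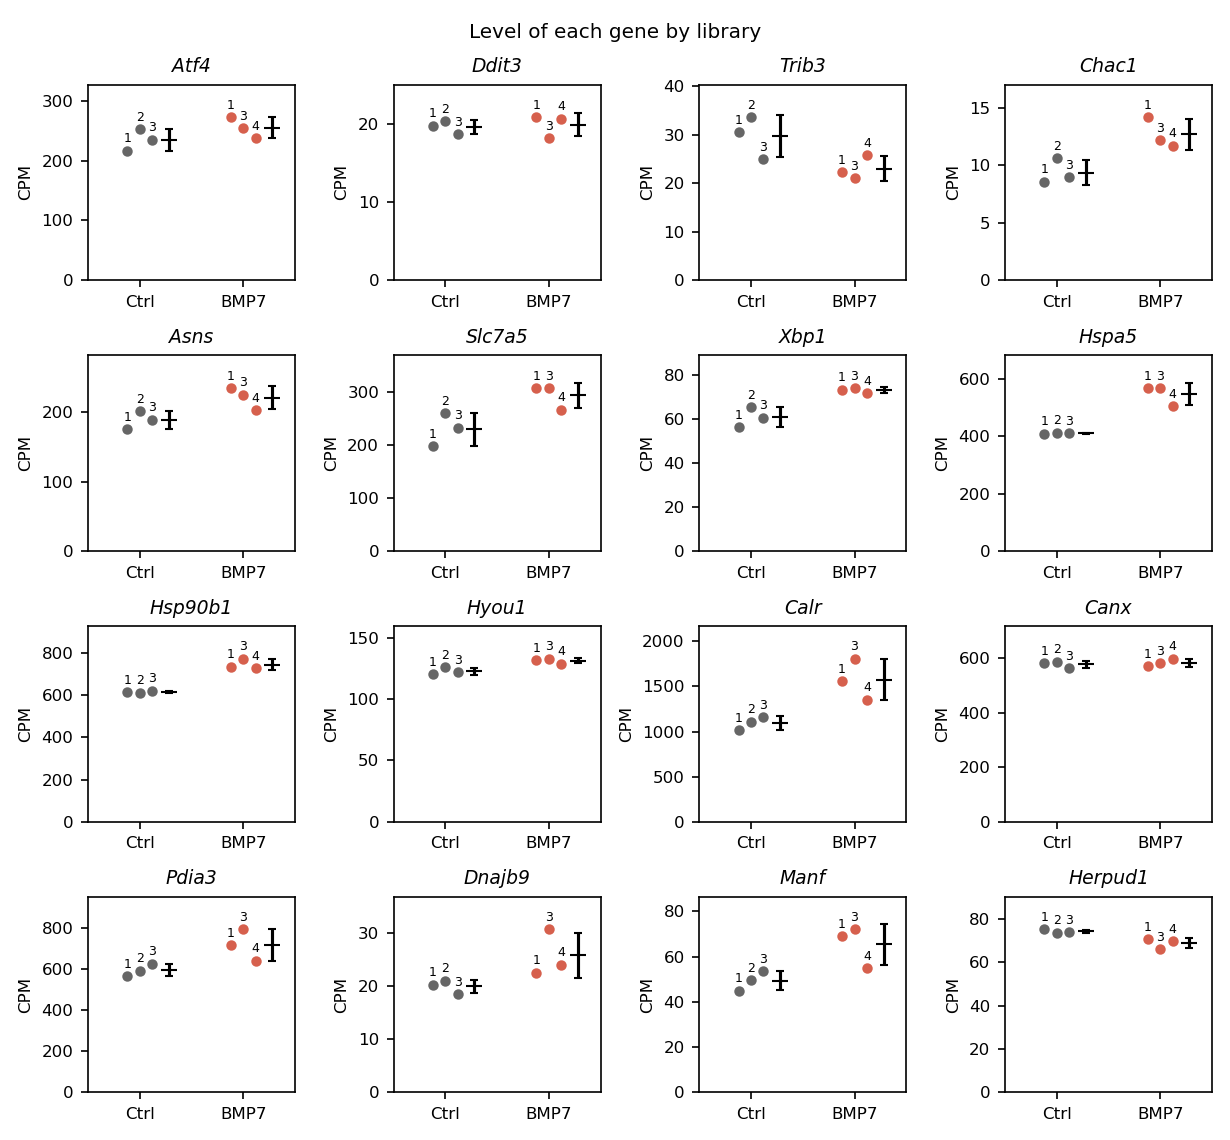
Level of 16 genes in every library in CPM (vertical axes start at 0), with the library number above each point and the mean ± SD of 3 libraries beside each group. Hspa5, Hsp90b1, Calr and Xbp1 show BMP7 libraries clear of Ctrl, while Atf4, Ddit3 and Canx overlap and Trib3 is lower with BMP7 in 2 of 3 libraries.

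The protein disulfide isomerases, which form and rearrange disulfide bonds, had smaller fold changes, and 1 of the 3 listed was called. Pdia3, the partner of calreticulin and calnexin, was at 567, 593 and 627 CPM in Ctrl and 717, 794 and 642 CPM in BMP7. Its groups did not overlap, BMP7 replicate 4 was close to Ctrl replicate 3, and it rose by 0.27 ± 0.08 (adjusted p = 0.0255). The Pdia3 call was lost without Ctrl replicate 1 or 2, without BMP7 replicate 3, under upper-quartile scaling and without a filter on low counts. Pdia4 (log2 fold change 0.23, adjusted p = 0.0121) and Pdia6 (0.20, adjusted p = 0.0302) passed on p but not on fold, with all BMP7 libraries above all Ctrl libraries. The other chaperones gave no call: Hyou1, a large Hsp70 relative that exchanges nucleotide on Hspa5, had a log2 fold change of 0.10 (95% interval -0.03 to 0.22), and Canx, the membrane-bound relative of Calr, 0.02 (-0.11 to 0.14). Canx thus lay apart from Calr, with intervals that do not overlap, though both promoters hold the ER stress element. Dnajc3 (p58IPK, an inhibitor of eIF2 kinases) was at 0.07, Creld2 at 0.04 and Sdf2l1, a cofactor of Hspa5, at -0.17, the only chaperone below 0.

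Of the 4 sensors and transcription factors Xbp1 rose. Xbp1 was at 56.2, 65.3 and 60.7 CPM in Ctrl and 73.4, 74.2 and 71.7 CPM in BMP7, without overlap, and the rise of 0.27 ± 0.07 (adjusted p = 0.0148) was just over the fold threshold. The Xbp1 call was lost without Ctrl replicate 1 or 3, without BMP7 replicate 3, with BMP7 replicate 1 alone, under upper-quartile scaling and without a filter on low counts. The counts join spliced and unspliced Xbp1 mRNA. Ern1 had a log2 fold change of 0.08 (95% interval -0.08 to 0.23), Atf6 0.08 (-0.06 to 0.22) and Eif2ak3 -0.19 (-0.37 to -0.01), the last with an adjusted p of 0.170 and overlapping groups. The ER-associated degradation genes gave no call by edgeR or DESeq2, and neither had an unadjusted p under 0.05. Herpud1, a membrane factor of the degradation complex, was at 75.3, 73.7 and 74.1 CPM in Ctrl and 70.7, 66.2 and 70.0 CPM in BMP7. All its BMP7 libraries were below Ctrl, with a log2 fold change of -0.11 ± 0.06 (adjusted p = 0.283), and Edem1, a lectin that hands glycoproteins to degradation, was at 0.04.

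**Figure D4:**
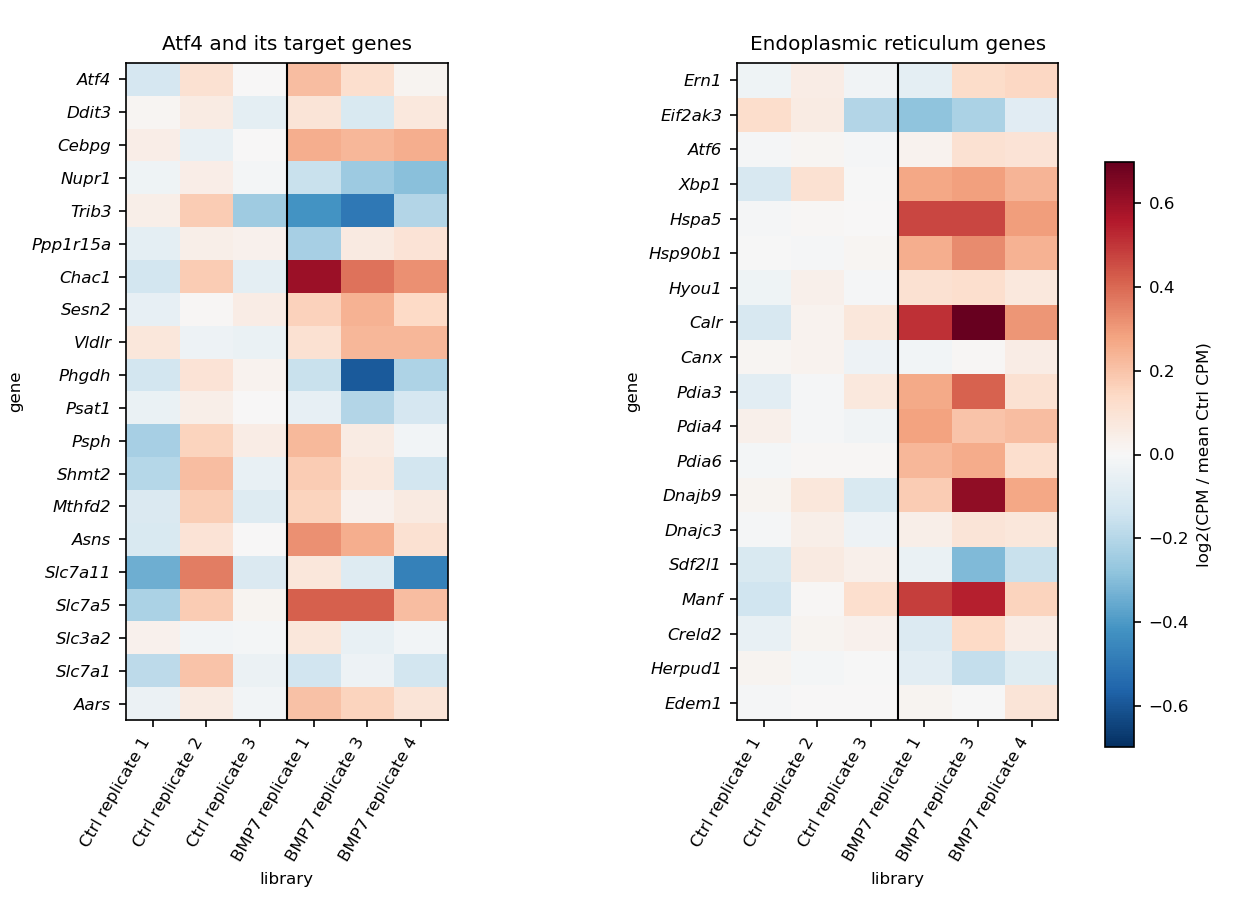
Log2 ratio of each library's CPM to the mean CPM of Ctrl for the 39 genes (rows, in order of role) in the 6 libraries (columns, Ctrl left of the black line). The scale ends at its deepest colours, so Calr in BMP7 replicate 3 is at or beyond the end. Red fills the BMP7 columns for Xbp1, Hspa5, Hsp90b1, Calr, Pdia3, Dnajb9 and Manf, while the Atf4 genes show red and blue rows and a mostly red Ctrl replicate 2.

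The number of ER genes that rose rested in part on single libraries. Without BMP7 replicate 3 it was 2 (Calr and Hspa5), without Ctrl replicate 1 it was 4 (these with Hsp90b1 and Manf), and under upper-quartile scaling it was also 4 (Calr, Hspa5, Manf and Dnajb9). With BMP7 replicate 1 as the only BMP7 library, which leaves out both libraries with high adipocyte markers and assumes that the lone library varies like Ctrl, 5 ER genes were higher (Calr, Hspa5, Manf, Pdia3 and Pdia4). In the same fit 3 Atf4 genes were higher (Chac1, Slc7a5 and Asns) and 0 lower. Beyond the calls, all 3 BMP7 libraries were above all Ctrl libraries for 11 of 19 ER genes and below for 1, and for 7 and 3 of 20 Atf4 genes, against 14.8% (above) and 15.1% (below) of all genes tested. The median deviation of the 13 chaperones from the Ctrl mean was 0.23, 0.26 and 0.12 in BMP7 replicates 1, 3 and 4 and between -0.01 and 0.02 in the Ctrl libraries, on the log2 scale.

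Atf4 itself gave no call. It was at 217, 253 and 235 CPM in Ctrl and 273, 255 and 238 CPM in BMP7. The groups overlapped, and the log2 fold change was 0.12 (95% interval -0.03 to 0.27, adjusted p = 0.306). Ddit3 (CHOP), a transcription factor that Atf4 induces under lasting stress, was at 19.8, 20.4 and 18.7 CPM in Ctrl and 20.9, 18.2 and 20.7 CPM in BMP7. Its groups overlapped and its log2 fold change was 0.02 (-0.18 to 0.21, adjusted p = 0.943).

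The other Atf4 regulators and feedback genes went both ways, with 1 of the 9 in this group higher and 1 lower. Chac1, which degrades glutathione, was at 8.57, 10.6 and 8.95 CPM in Ctrl and 14.2, 12.2 and 11.7 CPM in BMP7. The groups did not overlap and it rose by 0.43 ± 0.13 (adjusted p = 0.0297). Trib3, a pseudokinase that feeds back on Atf4 and Ddit3, was at 30.5, 33.6 and 25.0 CPM in Ctrl and 22.2, 21.0 and 25.8 CPM in BMP7. BMP7 replicate 4 lay above Ctrl replicate 3, so the groups overlapped, and the log2 fold change was -0.37 ± 0.11 (adjusted p = 0.0332). The Chac1 call was lost on leaving out Ctrl replicate 1 or 3 or BMP7 replicate 1 or 3, and the Trib3 call on leaving out Ctrl replicate 1 or 2 or BMP7 replicate 1 or 3, or with BMP7 replicate 1 alone.

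The remaining genes of this group gave no call, and Cebpg and Nupr1 passed on p but not on fold. Cebpg, a C/EBP partner of Atf4, was at 0.25 on the log2 scale (adjusted p = 0.00710), just under the fold threshold. Nupr1, a stress-induced nuclear protein, was at -0.24 (adjusted p = 0.0348). Cebpg was called higher without Ctrl replicate 1 and without BMP7 replicate 3, and Nupr1 was called lower without BMP7 replicate 1. Sesn2, a leucine sensor that restrains mTORC1, had 0.18 and Vldlr, a lipoprotein receptor, 0.19, each with all BMP7 libraries above Ctrl and adjusted p of 0.0968 and 0.0576. Ppp1r15a (GADD34), which brings phosphatase to eIF2 and ends the response, was at -0.01 (95% interval -0.26 to 0.24).

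No gene of serine, glycine, folate or asparagine synthesis was called by edgeR or DESeq2 among 6, and at an unadjusted p under 0.05 there was 1 higher and 1 lower. Asns, asparagine synthetase, was at 175, 201 and 189 CPM in Ctrl and 235, 225 and 203 CPM in BMP7. BMP7 replicate 4 was just above Ctrl replicate 2, and the log2 fold change was 0.23 ± 0.07 (adjusted p = 0.0370), with a fold of 1.17 that is under the threshold. Asns was called without Ctrl replicate 2, without BMP7 replicate 4 and with BMP7 replicate 1 alone. In the serine pathway the log2 fold changes were -0.32 for Phgdh, its first enzyme (adjusted p = 0.0598), -0.13 for Psat1 and 0.09 for Psph. Phgdh was called lower under upper-quartile scaling, without a filter on low counts and without BMP7 replicate 1. The mitochondrial one-carbon enzymes Shmt2 (0.05) and Mthfd2 (0.08) had groups that overlapped.

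Of the 5 genes of amino acid transport and tRNA charging Slc7a5 rose. Slc7a5 (LAT1), the exchanger that brings in leucine and other large neutral amino acids, was at 197, 259 and 232 CPM in Ctrl and 307, 306 and 266 CPM in BMP7. BMP7 replicate 4 was near Ctrl replicate 2 but above it, and the rise was 0.35 ± 0.09 (adjusted p = 0.0110). Without Ctrl replicate 1, its lowest library, Slc7a5 was not called. Slc3a2 (4F2hc), the partner chain that Slc7a5 and Slc7a11 need at the membrane, had a log2 fold change of 0.0029 (95% interval -0.12 to 0.13). The intervals of Slc7a5 and Slc3a2 do not overlap. Slc7a1, the carrier of cationic amino acids, was at -0.10 and Slc7a11, which imports cystine, at -0.15 (-0.50 to 0.20), the widest interval of the 39 genes. Aars, alanyl-tRNA synthetase, was at 0.15 (adjusted p = 0.120) with all BMP7 libraries above Ctrl.

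The Atf4 genes varied among libraries of the same group, with the same libraries high or low for most of them. Ctrl replicate 2 was the highest Ctrl library for 16 of 20 Atf4 genes (80.0%), against 32.6% of all genes tested, and Ctrl replicate 1 was the lowest for 15. Among BMP7 libraries, replicate 1 was the highest for 14 of 20 (70.0%, against 33.3%). The median deviation of the Atf4 genes from the Ctrl mean was -0.08, 0.10 and -0.01 in Ctrl and 0.14, 0.06 and 0.05 in BMP7, so Ctrl replicate 2 lay within the range of the BMP7 libraries. Without Ctrl replicate 2 the median log2 fold change of the Atf4 genes was 0.17, and without Ctrl replicate 1 it was 0.02. The ER genes had a lower median coefficient of variation, 2.84% in Ctrl and 5.07% in BMP7. It was 7.40% and 7.15% for the Atf4 genes and 7.13% and 8.74% for all genes tested. These sets were not matched for level, and counting noise weighs more on genes with few counts. The highest BMP7 library of the ER genes was replicate 3 for 12 of 19 (63.2%, against 33.8% of all genes). Replicate 3 was also the library with the most adipocyte marker RNA. These descriptions of single libraries were chosen after their values were seen, and the part of marker RNA of other cell types in them was not tested.

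Levels of different genes were compared as CPM per kb of summed exon length. In Ctrl, Calr had the highest level of the 39 genes at 379.6 CPM per kb, followed by Pdia3 at 189.9, Hsp90b1 at 153 and Canx at 123. Atf4 came next at 99.6 and Hspa5 at 97.2, and these 2 differed by less than the spread of Atf4 over its libraries. In BMP7 the mean level per kb was 547 for Calr, 129 for Hspa5 and 124 for Canx. At the other end stood the sensors Ern1 (5.28) and Atf6 (5.45), Ppp1r15a (4.08) and Slc7a11 (0.993). The length of a gene sums the exons of all its transcripts, so a gene with long rare exons is placed too low.

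**Figure D5:**
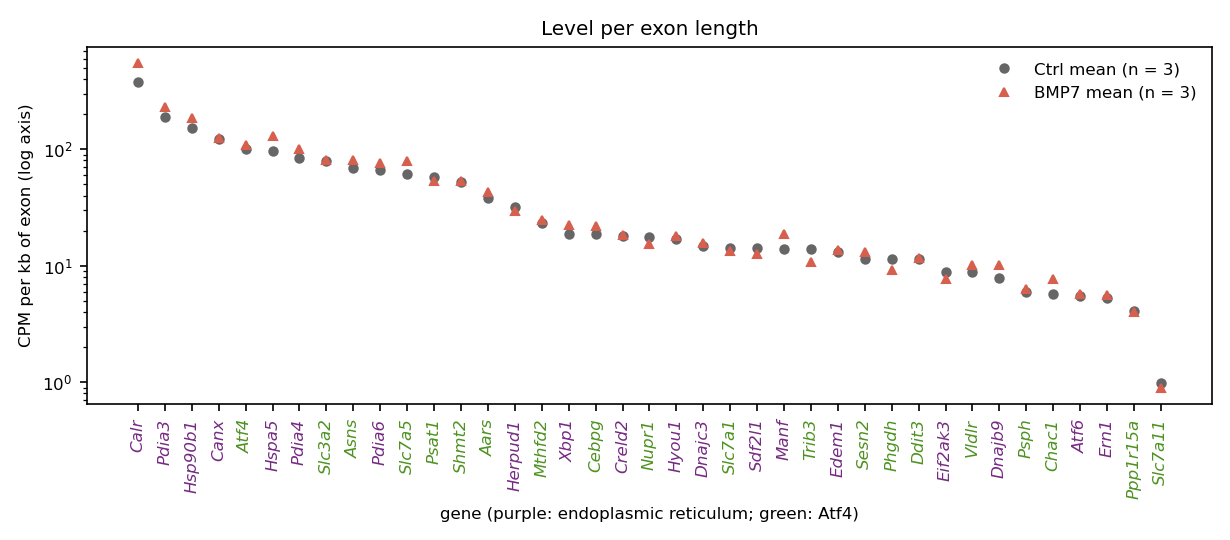
Mean level of each of the 39 genes in CPM per kb of summed exon length (log axis), in Ctrl (grey circles) and BMP7 (red triangles), 3 libraries each, ordered by the Ctrl level. Names of ER genes are purple and names of Atf4 genes green. The chaperones Calr, Pdia3, Hsp90b1 and Canx lead, and Slc7a11 is the lowest.

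Some of the 39 genes share exon sequence with others, where fragments could not be given to 1 gene. Phgdh has near-identical copies over 88.1% of its transcript, mostly pseudogenes, and Dnajb9 over 40.7%, in Gm6568. Exons of other genes overlap 15.7% of the exon bases of Hsp90b1, 15.1% of Aars, 10.4% of Psph and 9.25% of Manf, and counting did not use strand. The values of these genes are uncertain to that extent. Calr, Hspa5, Xbp1, Chac1, Slc7a5, Trib3, Atf4 and Asns share none.

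Further genes of the same pathways were called at shares from 0 to 17.6% of a list, against 11.4% of all genes tested. For the counts at an unadjusted p under 0.05, 2067 of all 15733 genes tested were higher and 2058 lower. Of 24 other ER folding and glycan enzymes none was called by edgeR or DESeq2, and at an unadjusted p under 0.05 there were 6 higher and 0 lower, with a median log2 fold change of 0.05. The thiol oxidase Ero1a (0.23), the Hspa5 partner Dnajb11 (0.22), Erp29 (0.22) and Cnpy2 (0.21) passed on p alone. The choice to name these genes followed sight of their values. Of 21 genes of translocation into the ER none was called by either tool, with 3 higher and 0 lower at an unadjusted p under 0.05 and a median of 0.07. Of 20 other degradation genes Ube2j1, an ER ubiquitin-conjugating enzyme, rose by 0.27 (adjusted p = 0.00487). Of 15 other factors and regulators of the unfolded protein response 1 was called (6.67%), Creb3l2, an ER-anchored transcription factor, which rose by 0.31 (adjusted p = 0.0277).

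On the amino acid side, 18 of the 22 genes on a list of further Atf4 targets were tested, and 2 fell and 0 rose by edgeR or DESeq2. At an unadjusted p under 0.05 there were 2 higher and 3 lower. The share called by edgeR was 11.1%, against 11.4% of all genes tested. Ddit4 (REDD1), an inhibitor of mTORC1, had 193, 214 and 181 CPM in Ctrl and 157, 132 and 147 CPM in BMP7 and fell by 0.43 on the log2 scale (adjusted p = 7.84e-04). Klhl24 fell by 0.32 (adjusted p = 0.0186). Genes of amino acid transport and tRNA charging, which Atf4 can also switch on, were kept out of this list and counted apart. Slc38a2, a transporter that rose, is thus not among the 22. None of 19 other cytosolic tRNA synthetases was called by edgeR or DESeq2, with 2 higher and 2 lower at an unadjusted p under 0.05. Of 15 genes of the eIF2 kinases, phosphatase and exchange factor 1 was called (6.67%, against 11.4% of all genes tested). Eif2ak4 (GCN2), the kinase that senses uncharged tRNA, fell by 0.36 (adjusted p = 0.00348). Its Ctrl libraries were at 36.8, 37.6 and 35.5 CPM and its BMP7 libraries at 27.6, 28.5 and 29.7 CPM.

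Among 17 other amino acid transporters tested 3 (17.6%, against 5.99% of all genes called higher) rose and none fell by edgeR or DESeq2, though 5 were lower at an unadjusted p under 0.05, and the median log2 fold change was -0.09. Slc38a2 (SNAT2), a sodium-coupled carrier of small neutral amino acids, was at 605, 586 and 567 CPM in Ctrl and 835, 819 and 884 CPM in BMP7. The groups lay far apart against their spread, and it rose by 0.53 ± 0.06 (adjusted p = 1.35e-05). Slc7a2, a carrier of cationic amino acids, rose by 0.50 (adjusted p = 0.00123), and Slc7a8 (LAT2) by 1.24 (adjusted p = 0.0322) from a Ctrl mean of 0.70 CPM. For comparison outside the ER, 2 of 16 cytosolic and mitochondrial heat shock genes were called (12.5%, against 11.4% of all genes tested). Bag3, an Hsp70 cochaperone, rose by 0.79 (adjusted p = 1.60e-06) and Hspb1, a small heat shock protein, by 0.33 (adjusted p = 0.0109). None of the 16 fell by edgeR or DESeq2 or at an unadjusted p under 0.05.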

How the data were processed

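RNA of HC11 cells was sequenced as read pairs in 6 libraries. Per the methods, the authors aligned reads with subjunc (Subread 2.0.3) to mm10 and counted with a GENCODE annotation. The file header names featureCounts 2.0.1 and an mm39 annotation, and gene positions are in that build. The authors deposited counts per gene, not normalized, with each gene's summed exon length. By the command in the header, strand was not used, and fragments with several positions or genes were dropped by default.

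Counts were analysed in R 4.3.3 with edgeR 4.0.16 (filterByExpr, TMM, quasi-likelihood test of group, 4 residual degrees of freedom, Benjamini-Hochberg adjustment over 15733 genes). The call needed an adjusted p under 0.05 together with a fold over 1.2. CPM used TMM-scaled library sizes with no prior count. The SE is the log2 fold change over the square root of F, and intervals are 95%. DESeq2 1.42.0, used by the authors, was an alternative, with other scalings, filters, thresholds, left-out libraries and a replicate block. The fit was tested on simulated data. Pairs of libraries of a group differed beyond counting noise (chi-square per degree of freedom 5.31 to 12.9). Elements were searched in RefSeq promoters (GRCm38.p6), and copies with BLAST 2.17.0. Depth was 14607938 to 23748970 counts per library.

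The members and lists were chosen with earlier results of these data known. Values per library were given for called members and for Atf4, Ddit3, Trib3, Asns, Hspa5, Hsp90b1, Xbp1 and Herpud1, and of each pathway list up to 4 called genes with the largest change were named, with Id1, Id2, Id3, Smad6 and Smad7. Values per library of a few other genes were added after they were seen.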

Additional observations from a re-analysis of the deposited data

How the results depend on the processing

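No called gene among the 39 changed direction under the 13 alternative fits, and Calr and Hspa5 were called under all of them. DESeq2, RLE size factors and a minimum of 10 counts in every library left each of the 39 calls as it was. Upper-quartile scaling gave 2 Atf4 genes lower, 4 ER genes higher and an ER median log2 fold change of 0.08. Without a filter on low counts 2 Atf4 genes were lower. On adjusted p alone 4 Atf4 genes were higher and 2 lower. At a fold over 1.5, 780 genes were called over the whole table and 0 Atf4 genes were higher, 0 lower and 0 ER genes higher. With BMP7 replicate 1 alone 3 Atf4 genes were higher and 0 lower, 5 ER genes were higher, and the medians were 0.14 for the Atf4 genes and 0.10 for the ER genes.

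Leaving out 1 library at a time gave 1302 to 1966 genes called, 1 to 3 Atf4 genes higher, 0 to 2 lower, 2 to 7 ER genes higher and 0 to 1 lower (Eif2ak3, without Ctrl replicate 3), with medians of 0.02 to 0.17 for the Atf4 genes and 0.08 to 0.14 for the ER genes. The lowest ER count came without BMP7 replicate 3.

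Column numbers 1 and 3 occur in both groups. Deviations of same-numbered libraries correlated by -0.01 and 0.12, and those of libraries with unlike numbers by -0.08 to 0.10. With 2 such pairs, and deviations taken from means of 3 libraries, these values cannot decide whether the numbers pair the samples. A fit with the number as a replicate block called 2111 genes, with 3 Atf4 genes higher, 1 lower, 7 ER genes higher and medians of 0.20 and 0.13 for the Atf4 and ER genes. The third Atf4 gene was Asns. Ctrl replicate 2 and BMP7 replicate 4 stand alone in their blocks, so this fit rests on 2 pairs with 1 residual degree of freedom.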
